A study of Mus musculus with 20 samples.

Results

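Expression of 7 chemokine receptor genes of T cells was described in CD8 T cells from lungs bearing 4T1 mammary carcinoma: Cxcr3, Cxcr6, Cxcr4, Ccr2, Ccr4, Ccr8 and Cx3cr1. Members were chosen by gene symbol, through probe sets listed with exactly 1 symbol, and each gene was read from its probe set of highest mean over all arrays. This gave 6 of the 7 receptors among 17097 genes, and Cxcr4 was not analysed here. The sorted cells carried CD8 and the activation marker CD44, and each of the 20 samples was hybridised to 1 Affymetrix array. All mice bore 4T1 tumours and had intranasal treatment, and the route of each single agent is not given here. Saline-CTRL, the control group, had 5 arrays and received saline. The SD-101 group had 6 arrays and received SD-101 alone, a ligand of the DNA-sensing receptor TLR9. The SD-101+anti-PD-1 group had 5 arrays and received SD-101 with an antibody against PD-1, an inhibitory receptor of T cells. The SD-101+anti-PD-1+a-CD4 group had 4 arrays and received a-CD4 in addition, whose effect on CD4 T cells the labels do not describe. The labels give no strain, age, dose or time, and whether numbered replicates are separate animals is not stated, so p-values reflect only the variation among the samples at hand.

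Chemokine receptors are G protein-coupled receptors that steer leukocytes along gradients of secreted chemokines and, for some ligands, make them adhere to the cells that display them. Activated CD8 T cells exchange receptors of lymphoid homing for receptors of inflamed tissue: CXCR3 binds the interferon-inducible chemokines CXCL9, CXCL10 and CXCL11, CXCR6 binds the membrane-bound CXCL16 and is known from lung-resident memory T cells, and CX3CR1 binds fractalkine and marks differentiated effector cells. CCR2 follows CCL2 and is best known from inflammatory monocytes, while CCR4 and CCR8 are known from type 2 helper and regulatory T cells.

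The values are log2 intensities after the authors' normalization, and a difference of 1 is a doubling of the intensity. Intensities of different probe sets do not compare amounts of RNA between genes. Placed within the array, the mean of Cxcr6 over all arrays (9.91) was above that of 96.6% of genes, Cxcr3 (9.05) above 92.3% and Ccr2 (7.93) above 81.5%. Cx3cr1 (4.76, above 45.8%), Ccr4 (3.65, above 37.0%) and Ccr8 (3.47, above 35.0%) lay under the median gene mean of 5.29. The deposited values carry no detection call, so whether the last 3 were above background was not measured.

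The sort was checked on its marker genes. Cd8a averaged 10.80 and Cd8b1 11.01 over all arrays, while Cd4 averaged 3.13. The macrophage and monocyte genes Adgre1, Csf1r and Cd14 averaged 3.42, 3.97 and 7.77, and the NK cell genes Klrb1c and Ncr1 2.96 and 5.53. With saline the epithelial gene Sftpc averaged 13.08 and the fibroblast gene Col3a1 10.75, so the samples also held transcripts of other cells. A T cell identity score, the mean log2 value of 13 measured T cell genes, ran from 8.32 to 10.27. In none of the 6 comparisons did any of these 13 genes pass, beside 0.333% to 7.12% of all genes. The arrays of lowest score stood apart: SD-101+anti-PD-1+a-CD4 replicate 2 (8.32) and Saline-CTRL replicate 1 (8.83). Pairwise results whose call changed without these 2 arrays are given both ways below. The neutrophil score stood apart on Saline-CTRL replicate 1 (10.56, the other saline arrays 3.26 to 3.63) and on SD-101+anti-PD-1+a-CD4 replicate 1 (9.54, the others of that group 3.76 to 6.14), while 0 of 8 neutrophil genes passed in any comparison. In RNA of a whole sample, fewer cells of a type and less RNA per cell cannot be told apart. Transcripts of other lung cells moved with treatment: 12 of 12 endothelial genes fell in SD-101+anti-PD-1 against saline and 12 of 12 with SD-101+anti-PD-1+a-CD4 against saline. The endothelial score, the mean of those genes, spanned 7.49 to 9.57 on saline arrays, 4.99 to 5.98 with SD-101+anti-PD-1 and 6.02 to 7.40 with SD-101+anti-PD-1+a-CD4. An epithelial score spanned 7.58 to 9.57, 9.68 to 10.20 and 9.32 to 9.46 in the same order of groups, and 2, then 0, of its 8 genes rose against saline. The fibroblast score spanned 5.77 to 7.64, 7.45 to 8.08 and 6.73 to 7.62. Of its 6 genes 3 rose in SD-101+anti-PD-1, and 1 rose and 1 fell with a-CD4 given too. With SD-101 alone the endothelial, epithelial and fibroblast scores spanned 6.62 to 9.02, 8.30 to 9.49 and 6.43 to 7.40. Of their genes 0 of 12, 0 of 8 and 0 of 6 passed against saline there, beside 0.333% of all genes. What part these changes had in the receptor results was not tested.

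The promoters of the receptors whose levels were highest or changed most between groups are shown for reference, from 250 bases before to 50 after the gene start in RefSeq (GRCm38.p6), 5′ to 3′ on the gene's strand. All 6 receptors matched an entry. Capitals mark 2 motifs, read on both strands: Runx, TGTGGT or its complement ACCACA, and ETS, CAGGAAG or its complement CTTCCTG. No marked match overlapped another.
Cxcr3 (chrX:101734098-101734397, minus strand): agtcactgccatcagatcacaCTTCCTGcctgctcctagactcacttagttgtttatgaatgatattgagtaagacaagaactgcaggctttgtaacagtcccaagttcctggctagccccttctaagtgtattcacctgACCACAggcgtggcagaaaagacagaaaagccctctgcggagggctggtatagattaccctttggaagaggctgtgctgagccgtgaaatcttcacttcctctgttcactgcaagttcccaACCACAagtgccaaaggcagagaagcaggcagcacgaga
Cxcr6 (chr9:123806227-123806526, plus strand): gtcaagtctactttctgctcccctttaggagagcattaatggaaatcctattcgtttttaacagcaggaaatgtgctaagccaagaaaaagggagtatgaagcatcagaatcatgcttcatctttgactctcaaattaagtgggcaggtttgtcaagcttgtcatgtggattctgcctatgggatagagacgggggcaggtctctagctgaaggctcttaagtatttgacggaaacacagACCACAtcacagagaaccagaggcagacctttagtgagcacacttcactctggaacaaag
Cx3cr1 (chr9:120068247-120068546, minus strand): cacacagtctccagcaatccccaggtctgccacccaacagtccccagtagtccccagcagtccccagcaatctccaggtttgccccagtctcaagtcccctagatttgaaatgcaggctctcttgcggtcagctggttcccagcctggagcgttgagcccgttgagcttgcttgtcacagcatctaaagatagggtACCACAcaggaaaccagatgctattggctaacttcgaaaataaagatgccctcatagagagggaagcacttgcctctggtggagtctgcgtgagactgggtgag

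In these windows Cxcr3 held a Runx match 110 bases before the start, a second one after the start and an ETS match 229 bases before the start. Cxcr6 held a Runx match 10 bases before the start and Cx3cr1 one 54 bases before it. Runx matches stood in 16.8% and ETS matches in 13.3% of 32851 RefSeq promoter windows of this length, so a single match is common. Ccr4 and Ccr8 held 1 ETS match each, and Ccr2 held neither motif. None of the 6 windows held a GAS motif (TTCNNNGAA, in 8.30% of windows), an ISRE (GAAA and GAAA parted by 2 bases, 3.44%) or a T-box motif (GGTGTGA, 3.98%), each searched on both strands. These are letter matches in short windows and were not read as binding sites.

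Cxcr3 was the receptor whose level differed most clearly between groups. Saline arrays 1 to 5 read 7.51, 8.74, 8.01, 7.54 and 8.54. With SD-101 the lowest array read 8.75, the median was 9.04 and the highest 9.41. With SD-101+anti-PD-1 the 5 arrays read 9.16, 9.11, 9.95, 9.52 and 9.84. Every array of both groups lay above every saline array, by a narrow margin for SD-101. The 4 arrays given SD-101+anti-PD-1+a-CD4 read 9.90, 8.56, 10.30 and 10.07, and replicate 2, the array of lowest T cell score, alone fell within the saline range. The group means were 8.07 ± 0.56 (SD, n = 5) for saline, 9.05 ± 0.22 (n = 6) for SD-101, 9.52 ± 0.38 (n = 5) for SD-101+anti-PD-1 and 9.71 ± 0.78 (n = 4) with SD-101+anti-PD-1+a-CD4.

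Across the groups Cxcr3 differed by the F test of limma (F = 11.66, adjusted p = 0.00645 over all genes). It rose by 1.45 (SE 0.30, adjusted p = 0.00549, limma) in SD-101+anti-PD-1 against saline, a call that held in all 10 fits with 1 array of these groups left out and in all 11 other settings. It rose by 1.64 (SE 0.31, adjusted p = 0.00372, limma) with SD-101+anti-PD-1+a-CD4 against saline, which held in 9 of 9 such fits. Fitting those 2 groups alone gave an adjusted p of 0.0650. Without both arrays of low T cell score the rises were 1.31 (adjusted p = 0.00258) and 1.88 (adjusted p = 8.02e-04). With SD-101 alone the difference was 0.98 (SE 0.28, 95% interval 0.39 to 1.58) and did not pass over all genes (adjusted p = 0.216, limma), although no array overlapped: 0.807% of all genes lay above saline on every array of that comparison. With the T cell score as a covariate this difference was 0.76 and passed (adjusted p = 0.0320), and with array weights it was 1.01 (adjusted p = 0.0462). No step between neighbouring groups in the order of means passed, the differences being 0.46 (95% interval -0.13 to 1.06) for adding anti-PD-1 to SD-101 and 0.19 (-0.47 to 0.85) for adding a-CD4 to both. Against SD-101 alone, SD-101+anti-PD-1+a-CD4 was 0.66 higher (0.024 to 1.29, adjusted p = 0.280).

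**Figure D1:**
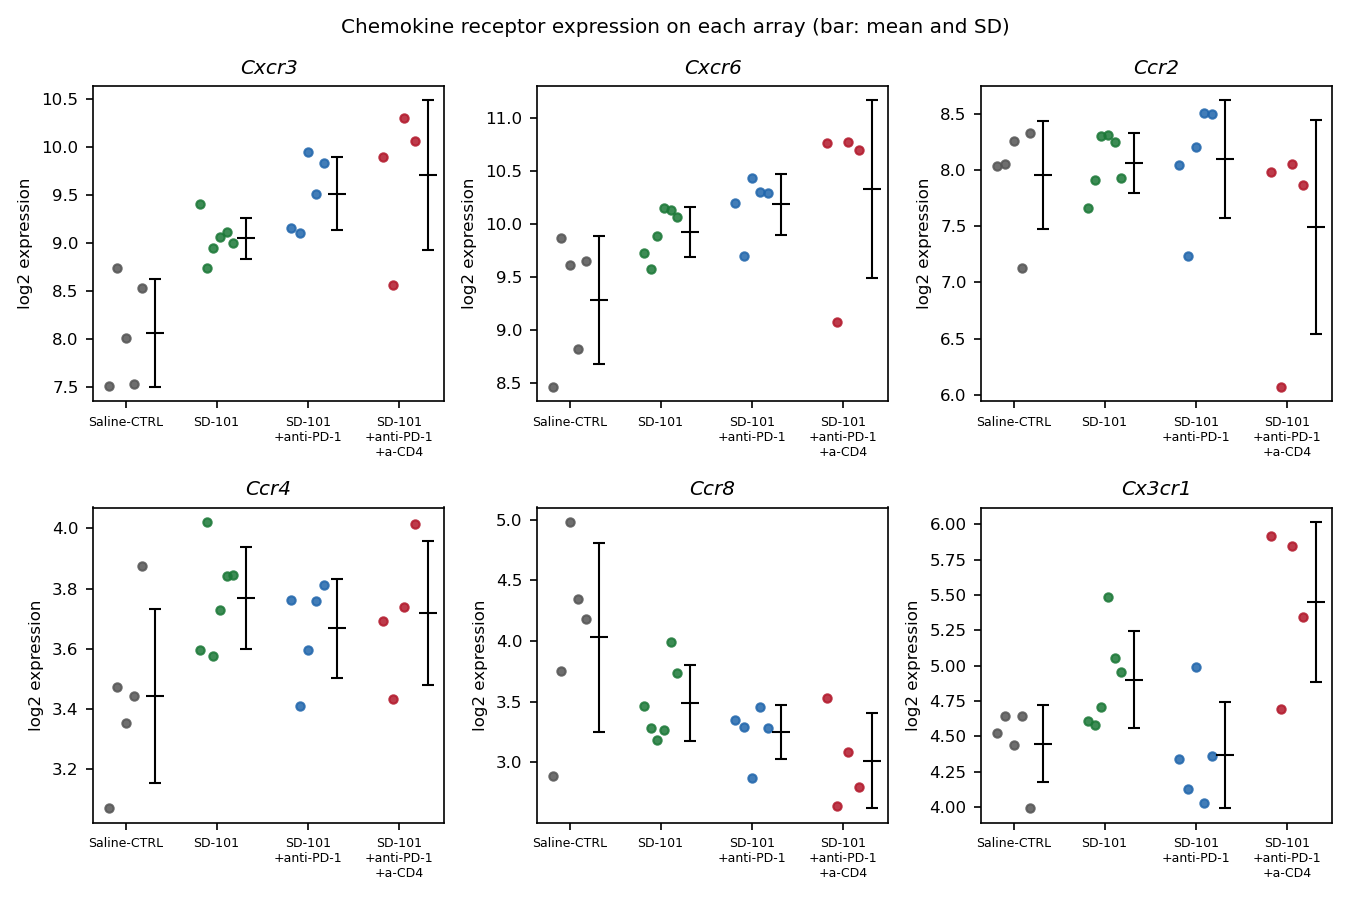
Log2 expression of the 6 receptors (vertical axes, scaled per gene) in the 4 groups (horizontal axes). Each point is 1 array and bars give the mean and SD; Cxcr3 arrays with SD-101+anti-PD-1 lie between 9.11 and 9.95, all above the highest saline array at 8.74, while replicate 2 given SD-101+anti-PD-1+a-CD4 lies far under the rest of its group for Cxcr3, Cxcr6 and Ccr2.

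Cxcr6, the CXCL16 receptor, had the same order of group means as Cxcr3 with more overlap. Saline arrays 1 to 5 read 8.46, 9.86, 9.61, 8.82 and 9.65. The SD-101 arrays had a lowest value of 9.58, a median of 9.98 and a highest value of 10.15. SD-101+anti-PD-1 arrays read 10.20, 9.70, 10.44, 10.30 and 10.29. Saline was thus split, with replicates 1 and 4 low and the other 3 within the range of the SD-101 group. The SD-101+anti-PD-1+a-CD4 arrays read 10.77, 9.08, 10.78 and 10.70, so 3 of 4 exceeded every array of the other groups and replicate 2 fell within the saline range.

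The group means of Cxcr6 were 9.28 ± 0.61 (SD, n = 5), 9.93 ± 0.24 (n = 6), 10.19 ± 0.29 (n = 5) and 10.33 ± 0.84 (n = 4), in the order saline, SD-101, SD-101+anti-PD-1 and SD-101+anti-PD-1+a-CD4. Against saline the difference was 0.64 for SD-101 (95% interval 0.031 to 1.26, adjusted p = 0.569, limma). For SD-101+anti-PD-1 it was 0.90 (0.26 to 1.54, adjusted p = 0.0957) and with SD-101+anti-PD-1+a-CD4 1.05 (0.37 to 1.73, adjusted p = 0.0563), so none passed. The last 2 results rested on single arrays. Without Saline-CTRL replicate 2 the adjusted p was 0.0453 and 0.0377, and without SD-101+anti-PD-1+a-CD4 replicate 2 the latter was 0.00262. Without both arrays of low T cell score the differences were 0.70 (adjusted p = 0.0335) and 1.26 (adjusted p = 0.00332). With the T cell score as a covariate they were 0.73 (adjusted p = 0.00439) and 0.97 (adjusted p = 4.56e-04). The second Cxcr6 probe set, of lower mean, had group means of 8.53, 9.14, 9.26 and 9.52.

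Cx3cr1, the fractalkine receptor, was highest with SD-101+anti-PD-1+a-CD4. Saline arrays 1 to 5 read 4.52, 4.64, 4.44, 4.65 and 3.99. With SD-101 the lowest array read 4.58, the median was 4.83 and the highest 5.48. With SD-101+anti-PD-1 the arrays read 4.34, 4.13, 4.99, 4.03 and 4.36, of which all but replicate 3 lay within the saline range. The SD-101+anti-PD-1+a-CD4 arrays read 5.92, 4.69, 5.85 and 5.35, all above every saline array. Replicate 2 of that group exceeded the highest saline array narrowly and lay under replicate 3 of SD-101+anti-PD-1. The group means were 4.45 ± 0.27 (SD, n = 5), 4.90 ± 0.34 (n = 6), 4.37 ± 0.37 (n = 5) and 5.45 ± 0.57 (n = 4), in the order of the groups above.

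Cx3cr1 differed across the groups (F = 8.04, adjusted p = 0.0232, limma), but not without SD-101+anti-PD-1+a-CD4 replicate 1 (0.0752) or replicate 3 (0.0642). Nor did it pass this F test with the replicate number as a block (0.0525). It rose by 1.003 (SE 0.25, adjusted p = 0.0189, limma) with SD-101+anti-PD-1+a-CD4 against saline, and this call ended without replicate 1 (0.0670) or replicate 3 (0.0625) of the first group and in a fit of the 2 groups alone (0.0787). It also rose by 1.08 (SE 0.25, adjusted p = 0.0307, limma) against SD-101+anti-PD-1, the comparison that adds a-CD4. That call held in 2 of 9 fits with 1 array left out, in which the adjusted p reached 0.108 without SD-101+anti-PD-1+a-CD4 replicate 1 and the difference ran from 0.93 to 1.33. In a fit of those 2 groups alone the adjusted p was 0.0789, and with the replicate number as a block it was 0.0607. Without both arrays of low T cell score the rises were 1.28 (adjusted p = 0.00640) and 1.33 (adjusted p = 0.0335). The 2 comparisons share their first group. Adding anti-PD-1 to SD-101 gave a difference of -0.53 (95% interval -0.998 to -0.062, adjusted p = 0.201), and SD-101 against saline 0.45 (-0.017 to 0.92, adjusted p = 0.618). A second Cx3cr1 probe set, of lower mean, had group means of 3.21, 3.62, 3.21 and 3.83 in the same group order.

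Monocytes, macrophages, dendritic cells and NK cells also express Cx3cr1, so their markers were set beside it. The macrophage and monocyte score, the mean of 16 measured genes, spanned 3.87 to 5.24 on saline arrays, 4.08 to 4.46 with SD-101+anti-PD-1 and 4.03 to 5.09 with SD-101+anti-PD-1+a-CD4. Of these 16 genes 0 passed in either comparison in which Cx3cr1 rose, beside 7.12% and 2.13% of all genes. Their median difference was -0.026 against saline and 0.016 against SD-101+anti-PD-1. With that score as a covariate the rises were 0.99 (adjusted p = 0.0104) against saline and 1.05 (adjusted p = 0.0231) against SD-101+anti-PD-1. The NK cell score spanned 3.22 to 3.91 with SD-101+anti-PD-1+a-CD4, 3.48 to 3.79 with SD-101+anti-PD-1 and 3.44 to 4.26 with saline. With SD-101 alone it spanned 4.06 to 5.52, and the macrophage and monocyte score 4.36 to 6.72. Of the 6 NK cell genes 1 passed for SD-101 against saline, Ncr1, which rose by 1.86 (adjusted p = 0.0447, limma). Against SD-101 alone, Ncr1 fell by 1.77 with SD-101+anti-PD-1 (adjusted p = 0.0144) and by 2.89 with SD-101+anti-PD-1+a-CD4 (adjusted p = 0.0118). The dendritic cell score was 3.93 to 4.33 with SD-101+anti-PD-1+a-CD4, above every saline array (3.47 to 3.87). It was 3.42 to 4.01 with SD-101+anti-PD-1 and 3.56 to 6.35 with SD-101 alone. With SD-101+anti-PD-1+a-CD4, 4 of its 5 genes were higher than in saline and 5 higher than in SD-101+anti-PD-1, with median differences of 0.60 and 0.39. In these 2 comparisons, in which Cx3cr1 rose, 0 of the 5 passed, beside 7.12% and 2.13% of all genes. As a description over 20 arrays, Pearson's r of Cx3cr1 with the dendritic cell, NK cell and macrophage scores was 0.52, 0.30 and 0.39, and on deviations from group means 0.48, 0.59 and 0.50. The array of highest Cx3cr1 (5.92) was also the one of high neutrophil score in its group, and the median difference of the 8 neutrophil genes, none of which passed, was 0.95 and 1.72 in the comparisons in which Cx3cr1 rose. A score from the same RNA, also as a covariate, cannot tell which cells the Cx3cr1 signal came from. The part of the macrophage and monocyte, dendritic cell, NK cell and neutrophil signals in the Cx3cr1 result was not tested.

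Ccr8 ran the other way. Saline arrays 1 to 5 read 2.88, 3.75, 4.98, 4.35 and 4.18. The SD-101 arrays had a lowest value of 3.19, a median of 3.37 and a highest value of 3.995. The SD-101+anti-PD-1 arrays read 3.35, 3.29, 2.87, 3.46 and 3.28, and those with SD-101+anti-PD-1+a-CD4 read 3.53, 2.64, 3.08 and 2.79. All arrays of the latter 2 groups lay under saline replicates 2 to 5, while saline replicate 1, the one with a low T cell score, lay among them. The group means were 4.03 ± 0.78 (SD, n = 5), 3.49 ± 0.32 (n = 6), 3.25 ± 0.22 (n = 5) and 3.01 ± 0.39 (n = 4).

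Ccr8 fell by 1.02 (SE 0.30, adjusted p = 0.0460, limma) with SD-101+anti-PD-1+a-CD4 against saline. The call held in 3 of 9 fits with 1 array left out, and its adjusted p reached 0.127 without SD-101+anti-PD-1+a-CD4 replicate 2. It was also lost when arrays were centred on their medians (0.0533) and when only the 2 groups were fitted (0.219). With the replicate number as a block the difference was -0.96 and did not pass (adjusted p = 0.103, limma). In SD-101+anti-PD-1 against saline the difference was -0.78 (95% interval -1.37 to -0.19, adjusted p = 0.125), and without saline replicate 1 it was -1.07 (adjusted p = 0.00982). Without both arrays of low T cell score the differences were -1.18 (adjusted p = 0.0128) with a-CD4 and -1.07 (adjusted p = 0.00838) without it. SD-101 alone differed from saline by -0.54 (-1.11 to 0.026, adjusted p = 0.625). Of 9 measured CD4 and regulatory T cell markers 2 passed in the comparison in which Ccr8 fell, beside 7.12% of all genes. Foxp3, the transcription factor of regulatory T cells, rose by 0.59 (adjusted p = 0.0156, limma) and Tnfrsf4, a costimulatory receptor, rose by 1.31 (adjusted p = 0.0135). The Foxp3 means were 3.59 with saline and 4.18 with SD-101+anti-PD-1+a-CD4, both under the median gene mean of 5.29. Whether Foxp3 was above background was not measured. The difference was -0.80 for Il2ra (95% interval -1.51 to -0.082, adjusted p = 0.182), -0.31 for Tnfrsf18 (adjusted p = 0.602), 1.04 for Ctla4 (0.312) and 0.57 for Ikzf2 (0.173), none of which passed. Cd4 itself averaged 3.32 there and 3.09 with saline, and the median difference of the 9 markers was 0.24. The part of these cells in the Ccr8 result was not tested. Foxp3 lost its call when arrays were centred on their medians or quantile-normalized, in a fit of the 2 groups alone, and without SD-101+anti-PD-1+a-CD4 replicate 3 (0.0565). Tnfrsf4 lost it in the fit of the 2 groups (0.0772) and without replicate 4 (0.0539).

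Ccr2 and Ccr4 passed in no comparison. Ccr2 read 8.03, 8.05, 8.26, 7.13 and 8.33 on saline arrays 1 to 5. Its SD-101 arrays ran from 7.66 to 8.31 with a median of 8.09. It read 8.04, 7.23, 8.21, 8.51 and 8.50 with SD-101+anti-PD-1. The ranges of these 3 groups overlapped widely. On the arrays given SD-101+anti-PD-1+a-CD4 it read 7.98, 6.07, 8.05 and 7.87, and replicate 2 was the lowest Ccr2 value measured. The group means were 7.96 ± 0.48 (SD, n = 5), 8.06 ± 0.27 (n = 6), 8.10 ± 0.52 (n = 5) and 7.49 ± 0.95 (n = 4). The difference between SD-101+anti-PD-1+a-CD4 and saline was -0.47 (95% interval -1.21 to 0.28, adjusted p = 0.510, limma), and without the 2 arrays of low T cell score it was 0.028 (adjusted p = 0.973). Of the 4 Ccr2 probe sets, the one of next highest mean gave group means of 7.66, 7.88, 8.14 and 7.36 in the same group order.

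Ccr4 read 3.07, 3.47, 3.35, 3.44 and 3.88 on saline arrays 1 to 5, 3.76, 3.41, 3.59, 3.76 and 3.81 with SD-101+anti-PD-1, and 3.69, 3.43, 3.74 and 4.02 with SD-101+anti-PD-1+a-CD4. Its SD-101 values ran from 3.58 to 4.02 with a median of 3.78. All groups overlapped, and 4 of 5 saline arrays lay under every SD-101 array. The group means were 3.44 ± 0.29 (SD, n = 5), 3.77 ± 0.17 (n = 6), 3.67 ± 0.17 (n = 5) and 3.72 ± 0.24 (n = 4). The differences from saline were 0.33 for SD-101 (95% interval 0.051 to 0.60, adjusted p = 0.489, limma), 0.23 for SD-101+anti-PD-1 (-0.062 to 0.51, adjusted p = 0.418) and 0.28 with SD-101+anti-PD-1+a-CD4 (-0.028 to 0.58, adjusted p = 0.294).

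**Figure D2:**
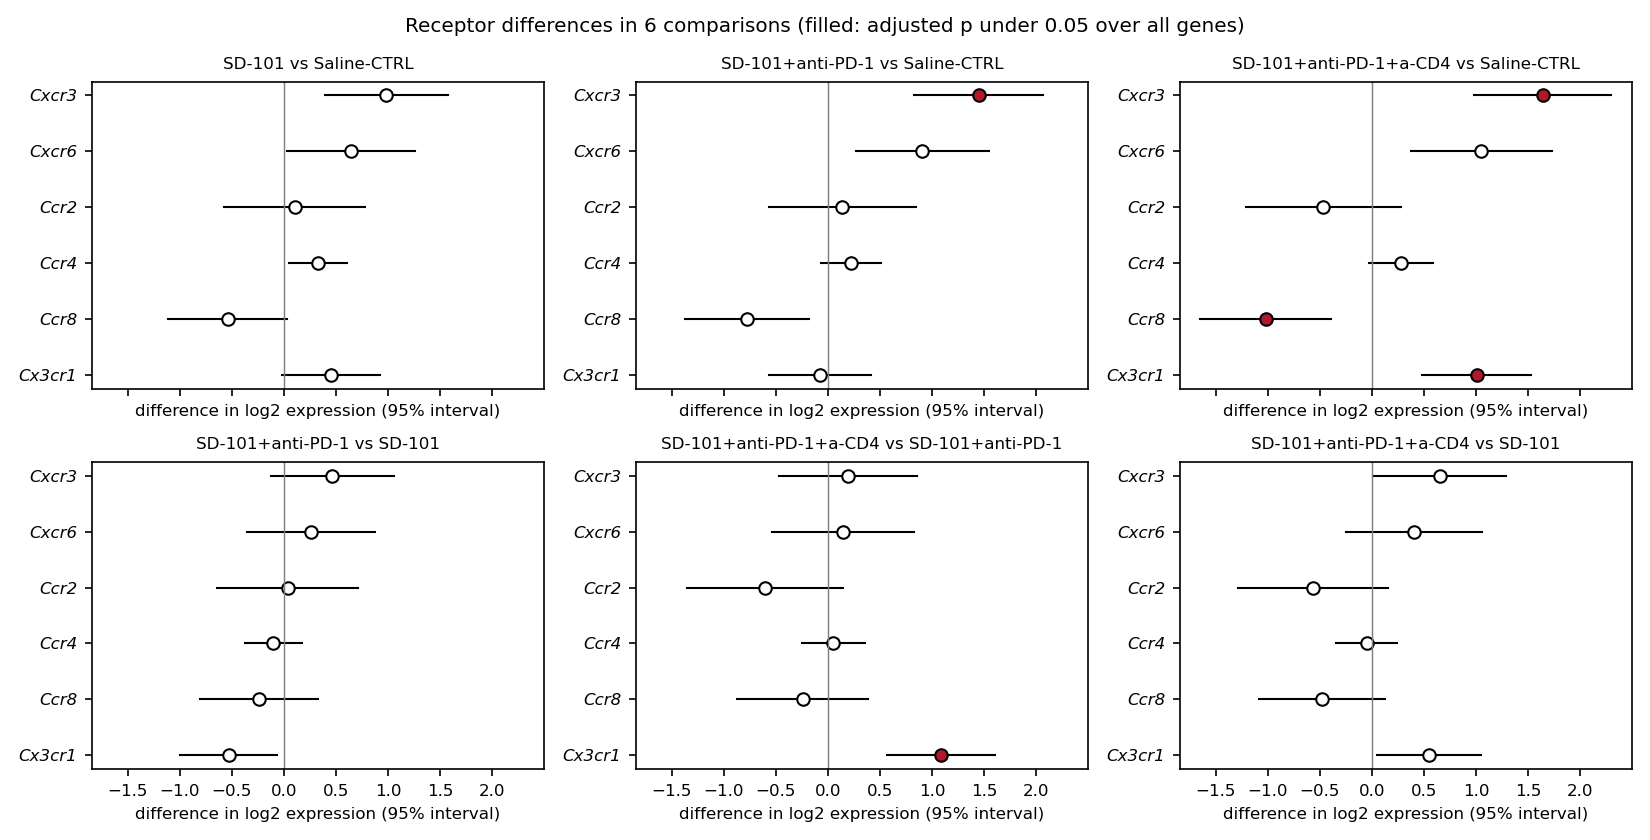
Difference in log2 expression (first group minus second, horizontal axes) of each receptor in 6 comparisons, with the 95% interval of the fit as a line. Filled points passed at an adjusted p under 0.05 over all genes: Cxcr3 at 1.45 and 1.64 against saline, Cx3cr1 at 1.003 against saline and 1.08 against SD-101+anti-PD-1, and Ccr8 at -1.02 against saline.

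Counted by comparison, 0 of 6 receptors passed for SD-101 against saline, where 0.333% of all genes passed by limma. At an unadjusted p under 0.05, 3 receptors and 1414 genes passed there. In SD-101+anti-PD-1 against saline 1 of 6 passed (Cxcr3, higher), beside 5.63% of all genes in either direction and 3.47% higher. With SD-101+anti-PD-1+a-CD4 against saline 3 of 6 passed (Cxcr3 and Cx3cr1 higher, Ccr8 lower), beside 7.12% of all genes, 4.09% higher and 3.03% lower. These 3 comparisons share the saline arrays. The median receptor difference was 0.39, 0.18 and 0.64 in that order, against medians of all genes of 0.012, 0.031 and 0.037. Of 17097 genes, 3.36% lay above saline on every array given SD-101+anti-PD-1, as Cxcr3 did, and 4.84% on every array given SD-101+anti-PD-1+a-CD4, as Cx3cr1 did. Adding anti-PD-1 to SD-101 gave 0 of 6 by limma, beside 4.77% of genes, with 1 receptor and 3122 genes at an unadjusted p under 0.05. Adding a-CD4 to both gave 1 of 6 (Cx3cr1, higher), beside 2.13% of genes, 0.948% higher. The SD-101+anti-PD-1+a-CD4 group against SD-101 gave 0 of 6, beside 0.983% of genes, with 2 receptors and 2846 genes at an unadjusted p under 0.05. The receptor medians in these latter 3 comparisons were -0.033, 0.099 and 0.18, against 0.0080, 0.0022 and 0.027 for all genes. In the F test over all groups 2 of 6 passed, beside 8.85% of genes. For none of the 6 receptors did groups next to each other in the order of means differ beyond the test.

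Cxcr3 and Cxcr6 went together across arrays. Over the 20 arrays their Pearson r was 0.92 (permutation p = 1e-05, the smallest that 100000 permutations can give, adjusted 0.00021 over 21 relations), and Spearman's rho was 0.92 (permutation p = 1e-05, adjusted 0.00021). Without the 2 arrays farthest from the median of Cxcr3 r was 0.85, and on deviations from the group means it was 0.88. Both receptors also followed the T cell identity score. For these relations the 2 farthest arrays were those farthest from the median of the score, which are the 2 of lowest score. For Cxcr6 r with that score was 0.74 (permutation p = 0.00035, adjusted 0.00367) and rho 0.61 (p = 0.00508, adjusted 0.0533 by permutation), with 0.60 without the 2 farthest arrays and 0.90 within groups. For Cxcr3 r was 0.58 (permutation p = 0.00646, adjusted 0.0226) and rho 0.55 (p = 0.014, adjusted 0.0737 by permutation), with 0.53 and 0.86. For Ccr2 r was 0.69 (permutation p = 0.00482, adjusted 0.0226) and rho 0.38 (p = 0.0968, adjusted 0.226 by permutation). Without the 2 farthest arrays the Ccr2 value was 0.46, so it leaned on those arrays. Within groups, with those arrays included, it was 0.72. Pearson's r of 7 of the 21 relations had an adjusted p under 0.05. Those not given above were of Ccr4, with Cxcr3 (0.59), Cxcr6 (0.65) and the T cell score (0.55). The permutations ran over the 20 arrays without regard to group, so the p-values of these 21 relations also count differences between groups. Outside these relations, as a description, r with the endothelial score was -0.67 for Cxcr3, -0.54 for Cxcr6 and 0.54 for Ccr8. On deviations from group means these values were -0.25, -0.20 and 0.22. The part of the endothelial signal in the receptor values was not tested.

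**Figure D3:**
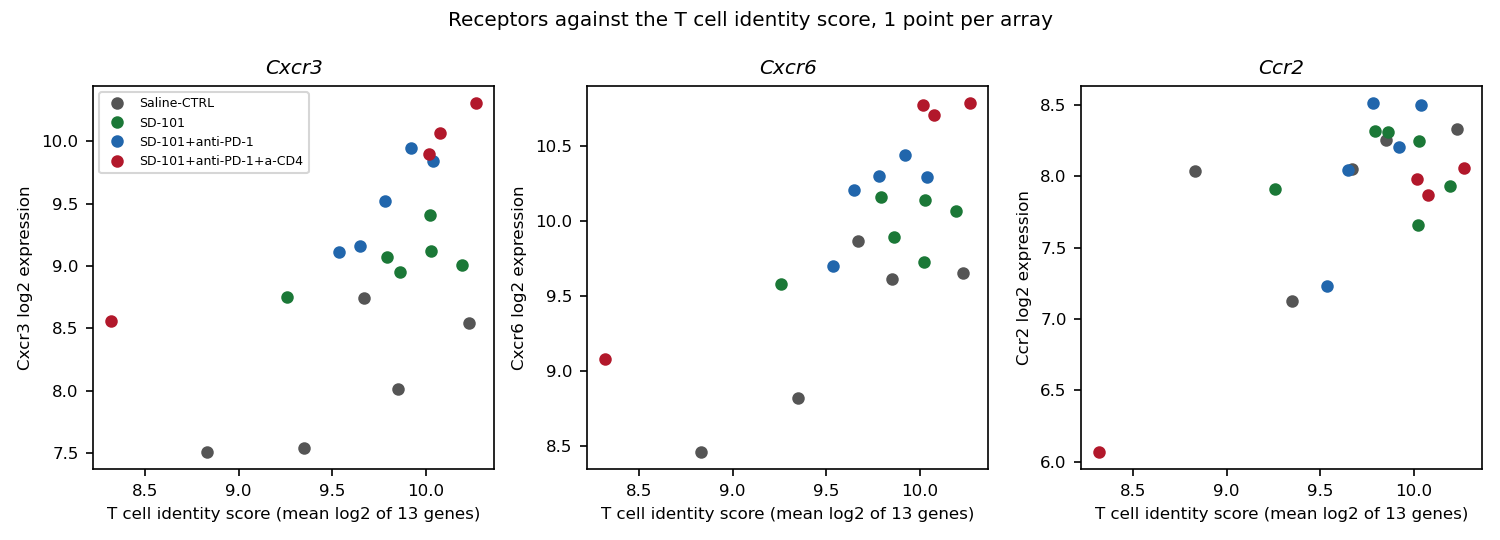
Log2 expression of Cxcr3, Cxcr6 and Ccr2 (vertical axes) against the T cell identity score, the mean log2 value of 13 T cell genes (horizontal axes), with 1 point per array coloured by group. The SD-101+anti-PD-1+a-CD4 array at a score of 8.32 is the lowest of its own group for all 3 receptors, and at scores near 10 the treated arrays lie above the saline arrays for Cxcr3.

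The T cell score itself overlapped between all groups, with means of 9.59 ± 0.53 (SD, n = 5) for saline, 9.86 ± 0.33 (n = 6) for SD-101, 9.79 ± 0.20 (n = 5) for SD-101+anti-PD-1 and 9.67 ± 0.91 (n = 4) with SD-101+anti-PD-1+a-CD4. With it as a covariate, Cxcr3 was 1.28 higher in SD-101+anti-PD-1 than in saline (adjusted p = 2.15e-04, limma) and 1.57 higher with SD-101+anti-PD-1+a-CD4 (adjusted p = 4.01e-05). In that fit the steps from SD-101 passed as well, at 0.53 for SD-101+anti-PD-1 (adjusted p = 0.0444) and 0.81 with SD-101+anti-PD-1+a-CD4 (adjusted p = 0.0114). Ccr8 was then lower in both anti-PD-1 groups than in saline, with differences of -0.87 (adjusted p = 0.0390) and -1.06 (adjusted p = 0.0121).

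The genes most like each receptor were taken as the 3 of highest Pearson r over the 20 arrays, a description across arrays that share treatment and T cell content. For Cxcr3 these were Gzmk, a granzyme of cytotoxic lymphocytes (r = 0.94, and 0.84 on deviations from group means), AW112010 (0.93 and 0.91) and Spn, which encodes the leukocyte surface sialoprotein CD43 (0.93 and 0.93). For Cxcr6 they were AW112010 (0.96 and 0.97), Rab19 (0.96 and 0.93) and Gimap7, a lymphocyte GTPase (0.95 and 0.93). AW112010 thus appeared for both receptors. For Cx3cr1 they were Havcr2, which encodes the inhibitory receptor TIM-3 (0.90 and 0.87), Ryr1 (0.85 and 0.87) and Entpd1, which encodes the ectonucleotidase CD39 (0.82 and 0.80). For Ccr8 they were E430018J23Rik (0.87 and 0.81), Tcap (0.84 and 0.75) and Smad7, an inhibitor of TGF-beta signalling (0.82 and 0.70). Ccr2 was most like Cd53, Synj2bp and Ngly1 (0.88, 0.86 and 0.85), and Ccr4 was most like H2-T10, Atp6v0a2 and Chordc1 (0.83, 0.81 and 0.81).

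Ligands of the receptors were measured in the same RNA, where 13 of 13 had a value. Those of Cxcr3 were the ones that passed. Cxcl9 averaged 5.37 ± 0.91 (SD, n = 5) with saline and 7.71 ± 1.20 (n = 6) with SD-101, a rise of 2.34 (SE 0.49, adjusted p = 0.0483, limma). This was 1 of 13 ligands in that comparison, beside 0.333% of all genes. The call held in 3 of 11 fits with 1 array left out (adjusted p of up to 0.161, leaving out Saline-CTRL replicate 3). Over the 11 other settings its adjusted p ran from 0.00960 to 0.261, and the call was lost in a fit of the 2 groups alone (0.261), with the macrophage and monocyte score as a covariate (0.235) and without the 2 arrays of low T cell score (0.0881). In SD-101+anti-PD-1 against saline 0 of 13 passed, beside 5.63% of all genes, with Cxcl9 at 6.03 ± 0.50 (n = 5). With SD-101+anti-PD-1+a-CD4 against saline 3 of 13 rose, beside 4.09% of all genes: Cxcl9 by 2.14 (adjusted p = 0.0228), Cxcl10 by 1.68 (adjusted p = 0.0300) and Cxcl11 by 1.93 (adjusted p = 0.0485). With 1 array left out these calls held in 6, 3 and 1 of 9 fits, and without the 2 arrays of low T cell score all 3 ended (0.0868, 0.0791 and 0.163). Cxcl10 and Cxcl11 also missed in a fit of the 2 groups alone (0.0964 and 0.0740), and Cxcl11 with array weights (0.0667). Their highest adjusted p among these fits was 0.0711 and 0.152, each without SD-101+anti-PD-1+a-CD4 replicate 2, for Cxcl9 and Cxcl11, and 0.0760 without Saline-CTRL replicate 3 for Cxcl10.

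Cxcl11 was lower where anti-PD-1 was added to SD-101. It averaged 6.32 ± 1.17 (SD, n = 6) with SD-101 and 4.34 ± 0.69 (n = 5) after anti-PD-1 was added to it. It fell by 1.98 (adjusted p = 0.0349, limma) and was the one ligand of 13 to pass, beside 4.77% of all genes. The call held in 4 of 11 fits with 1 array left out (adjusted p of up to 0.0997, leaving out SD-101+anti-PD-1 replicate 4). In that same comparison Cxcr3 was 0.46 higher and did not pass. With the macrophage and monocyte score as a covariate the call was lost (0.157), as it was with the mean of a gene's probe sets (0.0569). That score spanned 4.36 to 6.72 with SD-101 and 4.08 to 4.46 with SD-101+anti-PD-1. Cxcl16, the ligand of Cxcr6, averaged 6.82 ± 0.46 (n = 5), 7.32 ± 0.43 (n = 6), 7.39 ± 0.45 (n = 5) and 7.29 ± 0.10 (n = 4) and passed in no comparison. The same held for Cx3cl1, the ligand of Cx3cr1, with means of 5.85, 5.29, 4.79 and 5.41. Neither adding a-CD4 to SD-101+anti-PD-1 nor the SD-101+anti-PD-1+a-CD4 group against SD-101 gave a ligand past the limma test, 0 of 13 in each, beside 2.13% and 0.983% of all genes. The median ligand difference from saline was 0.53 with SD-101, 0.38 with SD-101+anti-PD-1 and 0.52 with SD-101+anti-PD-1+a-CD4, beside the medians of all genes given above.

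**Figure D4:**
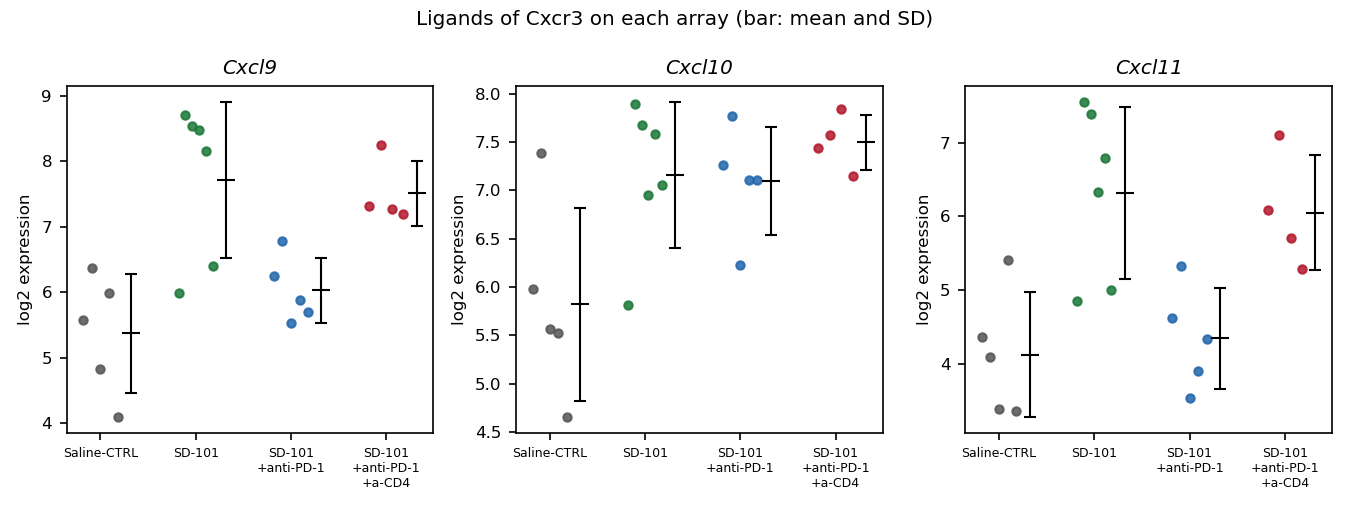
Log2 expression of the 3 Cxcr3 ligands (vertical axes) in the 4 groups (horizontal axes), with 1 point per array and bars for the mean and SD. Cxcl9 and Cxcl11 have 2 low arrays among the 6 with SD-101, and their means with SD-101+anti-PD-1 (6.03 and 4.34) lie nearer to saline (5.37 and 4.12) than those of the other treated groups.

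Of 16 other chemokine receptor genes 12 had a value, and those that passed were lower with treatment. The scavenging receptor gene Ackr2 fell by 2.81 (SE 0.46, adjusted p = 0.00112, limma) in SD-101+anti-PD-1 against saline. Ackr3, another scavenger, fell by 1.99 (adjusted p = 0.0171) and Ccrl2, which presents chemerin, fell by 1.46 (adjusted p = 0.0281), making 3 of 12, beside 5.63% of all genes. These 2 calls ended in 3 and 7 of 10 fits with 1 array left out, with an adjusted p of up to 0.0560 without Saline-CTRL replicate 4 and 0.0910 without Saline-CTRL replicate 3. The Ccrl2 call also ended in a fit of the 2 groups alone (0.0592). Ackr2 and Ackr3 are known from lymphatic and blood endothelium. The 12 endothelial genes, a list not divided into lymphatic and blood vessels, fell in that comparison as given above. The part of endothelial cells in the falls of Ackr2 and Ackr3 was not tested. The comparison between SD-101+anti-PD-1+a-CD4 and saline gave 2 of 12, beside 7.12% of all genes. Ccr9, a receptor of gut-homing T cells, fell by 1.47 (adjusted p = 0.0123), from a mean of 7.92 to 6.45, in 9 of 9 fits with 1 array left out. It did not pass in a fit of the 2 groups alone (0.105). Ackr2 fell by 1.79 (adjusted p = 0.0325), in 2 of 9 such fits (0.0974 at most, without SD-101+anti-PD-1+a-CD4 replicate 4), and did not pass without the 2 arrays of low T cell score (0.0888), with the mean of its probe sets (0.0575) or in a fit of the 2 groups alone (0.0729). With anti-PD-1 added to SD-101, Ackr2 fell by 2.10 (adjusted p = 0.0113) and Ccrl2 fell by 1.29 (adjusted p = 0.0497), the latter in 1 of 11 such fits (0.118 at most, without SD-101 replicate 4). With the filter on dim genes Ccrl2 did not pass (0.0533). Both were lost with the macrophage and monocyte score as a covariate (0.0879 and 0.269).

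Behind the receptors, 14 of 15 genes of G protein signalling and desensitisation had a value. Rgs2, which ends G protein signals, fell in SD-101+anti-PD-1 against saline (difference -1.22, adjusted p = 0.0250, limma), in 4 of 10 fits with 1 array left out (up to 0.0860, without Saline-CTRL replicate 3). It fell by 1.79 (adjusted p = 0.00296) with SD-101+anti-PD-1+a-CD4 against saline, in 9 of 9 such fits and all 11 other settings. Its means were 9.81 ± 0.60 (SD, n = 5) with saline, 9.67 ± 0.52 (n = 6) with SD-101, 8.59 ± 0.34 (n = 5) when anti-PD-1 was added and 8.02 ± 0.61 (n = 4) with SD-101+anti-PD-1+a-CD4. No array of the last 2 groups reached the lowest saline array at 9.12, while 2.32% and 3.32% of all genes lay below saline on every array of those groups. Against SD-101, Rgs2 fell by 1.08 with anti-PD-1 added (adjusted p = 0.0451), which held in 3 of 11 such fits (0.116 when SD-101+anti-PD-1 replicate 2 was left out) and was lost with the macrophage and monocyte score as a covariate (0.125) and with the filter on dim genes (0.0504). It fell by 1.65 with SD-101+anti-PD-1+a-CD4 (adjusted p = 0.0240), which held in 8 of 10 (0.0712 when replicate 2 given SD-101+anti-PD-1+a-CD4 was left out) but not without both arrays of low T cell score (0.0534) or in a fit of the 2 groups alone (0.0623). Arrb1, which encodes a beta-arrestin that uncouples receptors, fell by 0.85 (adjusted p = 0.0469) with SD-101+anti-PD-1 and fell by 0.97 (adjusted p = 0.0289) with SD-101+anti-PD-1+a-CD4, both relative to saline. These held in 2 of 10 and 4 of 9 such fits, with an adjusted p of up to 0.128 without Saline-CTRL replicate 4 and 0.0926 without SD-101+anti-PD-1+a-CD4 replicate 2. Both Arrb1 calls ended without the 2 arrays of low T cell score (0.0577 and 0.127). The other 12 genes of this list passed in none of the 6 comparisons. The 2 of 14 called against saline stood beside 5.63% of all genes with SD-101+anti-PD-1 and 7.12% with SD-101+anti-PD-1+a-CD4. With SD-101 alone 0 of 14 signalling genes and 0 of 12 other receptors passed the limma test against saline, beside 0.333% of all genes. The median differences from saline, in the order SD-101, SD-101+anti-PD-1 and SD-101+anti-PD-1+a-CD4, were 0.026, -0.029 and 0.031 for the signalling genes and -0.18, -0.37 and -0.086 for the other receptors.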

How the data were processed

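Total RNA of sorted cells, extracted with Qiagen reagents and labelled with biotin, was hybridised to Affymetrix arrays. Log2 values of each probe set, as the authors deposited them, were the starting point, and the submitters' processing notes name affy, RMA, limma and the build mm8, with no version or role. Values (1.78 to 13.44, array medians 3.52 to 3.75) were used as deposited. Array data carry no read depth, and the number of arrays limits the precision.

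Of 45141 probe sets 28898 were listed with 1 symbol, 551 with several, and 15692 had no listed gene. Symbols were checked through Entrez identifiers (28689 matched, 0 changed). One probe set per gene, of highest mean, gave 17097 genes with no filter. Groups came from the labels and were fitted together with group means in limma 3.58.1 (R 4.3.3). The fit gave 6 comparisons by 2-sided moderated tests and an F test. A gene was called, and said to rise or fall, at a Benjamini-Hochberg adjusted p under 0.05 over all genes. The fit was tested on simulated data. Correlations used 100000 permutations, 2-sided (Python 3.11.15, scipy 1.17.1).

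The members, gene lists, marker lists, naming rule and other settings were chosen with earlier results of these data known. Named genes were the receptors, members of the 3 pathway lists that were called or bind a receptor described, markers beside a result, and the 3 genes most like each receptor. The main fit did not use replicate numbers as pairs. Deviations of same-numbered arrays correlated at -0.39 to 0.51 (median 0.013), with 9 of 27 pairs over 0.1. These correlations cannot show whether same-numbered arrays belong together.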

Additional observations from a re-analysis of the deposited data

Results flagged for a closer look

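Each receptor in each group of 4 to 6 arrays was screened for a single array far from the others by Dixon's criterion at 95%, and 3 of 24 gene and group sets stood out, where chance flags about 1 in 20. Cxcr6 on SD-101+anti-PD-1+a-CD4 replicate 2 read 9.08, while the other 3 arrays of the group read 10.70 to 10.78. Ccr2 on the same array read 6.07, while the other 3 read 7.87 to 8.05. This array had the lowest T cell identity score of all arrays (8.32). Ccr2 on Saline-CTRL replicate 4 read 7.13, while the other 4 saline arrays read 8.03 to 8.33.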

How the results depend on the processing

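Of 915 receptor values under other settings, 838 kept their direction and side of the threshold, 25 lost a call, 30 gained one and 22 changed sign, all 22 uncalled (size up to 0.113, adjusted p from 0.685). Causes were not tested. Genes called moved over 1.5 times as follows. Centred arrays gave 36 (SD-101 against saline) and 68 (SD-101+anti-PD-1+a-CD4 against SD-101), and moved the median of all genes in SD-101+anti-PD-1 from 0.031 to -0.11 against saline and from 0.0080 to -0.11 against SD-101. The dim-gene filter, which removes Ccr4, Ccr8 and Cx3cr1, gave 566, 325 and 149 (SD-101+anti-PD-1 against saline, against SD-101, a-CD4 added), and 0 receptors for a-CD4 added and 1 in the F test. Array weights gave 119 (SD-101) and 1953 (SD-101+anti-PD-1) against saline, 2760 for anti-PD-1 added, 1246 for a-CD4 added, 603 for both added and 3784 (F). The receptors were then 1, 3 and 5 against saline, 1 for anti-PD-1 added, 1 for both added and 4 (F). Fitting only the 2 groups gave 10 (SD-101 against saline), 476 (all 3 agents against saline), 1332 (anti-PD-1 added) and 56 (both added), with 0 receptors with SD-101+anti-PD-1+a-CD4 against saline or SD-101+anti-PD-1. The T cell score gave 92, 1499 and 2483 against saline, 850 for a-CD4 added, 628 for both added and 2862 (F), with 1 and 3 receptors against saline (SD-101 and SD-101+anti-PD-1), 1 for anti-PD-1 added, 2 for both added and 4 (F). The macrophage score gave 9 (SD-101 against saline) and 213 (anti-PD-1 added). Without the 2 arrays of low T cell score, 62 genes were called for a-CD4 added and 51 for both added, and 3 receptors in SD-101+anti-PD-1 against saline and 4 in the F test.

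The replicate block gave 242 genes and 0 receptors for a-CD4 added, and 1 receptor in the F test: Ccr8 against saline was -0.96 (adjusted p = 0.103), Cx3cr1 with a-CD4 added 1.06 (0.0607) and Cx3cr1 in the F test 0.0525. Signs changed for Ccr2, -0.081 with centred arrays (SD-101+anti-PD-1 against SD-101), -0.11 and -0.019 with the T cell score and -0.0082 with the macrophage score (against saline), and 0.028 without the low arrays, and for Ccr4 with SD-101+anti-PD-1+a-CD4 against SD-101, 0.093 with weights, 0.022 with the block and 0.046 without the low arrays.

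With each array left out, genes called ran 25 to 64, 553 to 1531 and 665 to 1234 against saline, 317 to 1081 for anti-PD-1 added, 73 to 488 for a-CD4 added, 35 to 220 with SD-101+anti-PD-1+a-CD4 against SD-101 and 987 to 1856 (F), and receptors 0, 1 to 2, 1 to 4, 0, 0 to 1, 0 and 1 to 3. Ranges with a change of sign were, for Ccr2, -0.11 to 0.19, -0.069 to 0.36 and -0.67 to 0.0098 against saline and -0.067 to 0.25 for anti-PD-1 added. For Ccr4 they were -0.15 to 0.046 against SD-101 and -0.047 to 0.15 for a-CD4 added. With a-CD4 added they were -0.0036 to 0.57 for Cxcr6 and -0.0066 to 0.57 for Cxcr3, and Cx3cr1 in SD-101+anti-PD-1 against saline ran -0.23 to 0.0063.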
